A study of Mus musculus with 12 samples.

Results

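Cultured mouse cardiac fibroblasts that had received only the vehicle were compared between 2 harvest times. The comparison took the 3 vehicle libraries of 24 h against the 3 vehicle libraries of 4 h, which are 6 of the 12 RNA sequencing libraries of the study. They were chosen by their labels alone. Per the labels, the cells were primary fibroblasts isolated from the hearts of C57BL/6 mice, kept in serum-containing medium, and given ethanol for 4 h or 24 h before column purification of RNA. The other 6 libraries came from cells given 6 µM of the compound MCB-613-10-1 for the same times, and enter only the last comparison. The study's own question was how this compound acts on the fibroblasts. The vehicle libraries show how far the cells without the compound differed between the times at which it was read. No sample was taken before the vehicle was added, and the labels do not say whether the 2 times came from the same cultures, so time and culture batch cannot be told apart. They also do not say whether replicates were separate cultures or animals, and every p-value here therefore rests on library-to-library spread that may be technical.

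Fibroblasts of the heart build and remodel the collagen-rich matrix between the muscle cells. In culture they respond to serum, fresh medium and handling with a short burst of early response genes, such as the FOS, JUN and EGR transcription factors, which are switched on within minutes and held in check by their own inhibitors. Growth factors can then bring the cells into the division cycle, stiff plastic favours the contractile, matrix-producing myofibroblast state, and interferon-stimulated genes rise when the cells sense interferon.

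Libraries held 26869195 to 34877090 counts. Across genes, log2 CPM (counts scaled to library size) correlated with r from 0.991 to 0.997 between libraries of 4 h, from 0.996 to 0.997 between those of 24 h, and from 0.961 to 0.978 between times. The median coefficient of variation over replicates was 10.4% at 4 h and 5.24% at 24 h, over 11565 genes. Ribosomal RNA took 0.543 to 0.90% of the counts at 4 h and 2.92 to 4.09% at 24 h, and mitochondrially encoded genes took 0.342 to 0.423% and 0.519 to 0.648%. The labelled cell type had its markers: the 36 fibroblast identity genes summed to 6739 to 7459 CPM at 4 h and 8035 to 8286 at 24 h. The 12 cardiomyocyte markers summed to 12.6 to 23.8 CPM at 4 h and 17.6 to 20.8 at 24 h, with the cardiac myosin genes Myh6 and Myh7 each at 0 counts in 4 of the 6 libraries. Tnnt2, picked after its values were seen, held the most counts of these markers in every library (353 to 665) and so weighs most in the sum. The X inactivation transcript Xist stood at 27.0, 18.9 and 20.2 FPKM (counts scaled for gene length and library size, recomputed from the counts on 1 scale for all 6 libraries) at 4 h and 16, 17.9 and 20.5 at 24 h, and the 4 Y-linked genes looked for were in neither table.

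Some named genes were chosen here because their promoter window holds the motif searched for their list, and not all such genes are shown. Promoters of the chosen genes follow for later reference. Each is the 150 bases upstream of the gene's RefSeq start on GRCm38.p6, from the RefSeq promoter table, written 5′ to 3′ on the gene's strand, with the letters of a searched motif in capitals. The set begins with 3 interferon-stimulated genes that were higher at 24 h and whose capitals mark the interferon-stimulated response element. It goes on with 3 protease and protease inhibitor genes that were lower at 24 h (AP-1 motif, TGANTCA), the clock gene Ciart (E-box, CACGTG), the stress gene Ppp1r15a (cAMP response element, TGACGTCA) and the chemokine gene Cxcl2 (NF-kappa-B motif), all lower at 24 h.
Gbp3, chr3:142559894-142560043, + strand: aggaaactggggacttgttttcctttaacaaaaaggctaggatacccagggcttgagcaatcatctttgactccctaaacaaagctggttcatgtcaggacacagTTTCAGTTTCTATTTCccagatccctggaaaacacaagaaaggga
Isg15, chr4:156200819-156200968, - strand: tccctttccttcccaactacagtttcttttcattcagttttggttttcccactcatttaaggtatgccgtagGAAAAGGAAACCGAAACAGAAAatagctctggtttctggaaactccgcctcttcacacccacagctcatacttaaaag
Oas1a, chr5:120907526-120907675, - strand: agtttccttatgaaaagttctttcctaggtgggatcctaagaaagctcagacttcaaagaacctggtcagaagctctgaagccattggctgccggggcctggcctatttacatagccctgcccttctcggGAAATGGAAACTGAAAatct
Mmp10, chr9:7502192-7502341, + strand: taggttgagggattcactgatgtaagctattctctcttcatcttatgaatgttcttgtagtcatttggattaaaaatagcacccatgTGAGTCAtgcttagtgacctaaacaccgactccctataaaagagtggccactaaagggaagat
Mmp13, chr9:7272364-7272513, + strand: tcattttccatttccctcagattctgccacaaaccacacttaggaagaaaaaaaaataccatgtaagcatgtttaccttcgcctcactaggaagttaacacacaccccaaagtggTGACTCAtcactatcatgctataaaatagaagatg
Serpinb2, chr1:107511273-107511422, + strand: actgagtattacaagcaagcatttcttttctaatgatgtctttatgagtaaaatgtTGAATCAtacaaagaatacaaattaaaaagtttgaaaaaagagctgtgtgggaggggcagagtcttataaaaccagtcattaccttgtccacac
Ciart, chr3:95882229-95882378, - strand: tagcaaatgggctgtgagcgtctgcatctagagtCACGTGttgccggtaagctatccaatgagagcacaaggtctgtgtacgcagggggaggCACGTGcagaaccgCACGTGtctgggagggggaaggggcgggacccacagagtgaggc
Ppp1r15a, chr7:45526269-45526418, - strand: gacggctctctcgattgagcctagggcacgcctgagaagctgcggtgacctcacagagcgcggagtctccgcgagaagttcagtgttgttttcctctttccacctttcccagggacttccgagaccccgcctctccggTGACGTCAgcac
Cxcl2, chr5:90903749-90903898, + strand: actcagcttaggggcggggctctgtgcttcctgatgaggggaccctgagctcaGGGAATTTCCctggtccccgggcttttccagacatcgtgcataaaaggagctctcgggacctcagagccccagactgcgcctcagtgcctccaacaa

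These motifs were counted on both strands over the same window in all 27025 genes of the promoter table, which held 966 of the 1281 listed genes. The interferon-stimulated response element stood in 13 of 29 promoters of the interferon list (44.8%) against 1.85% of all promoters. Among genes called higher at 24 h it stood in 3.02% of promoters, and among genes called lower in 1.38%. The AP-1 motif stood in 7 of 19 promoters of the metalloprotease list (36.8%, against 4.96% of all promoters) but in 1 of 23 of the early response list. It also stood in 8 of 29 promoters of the interferon list (27.6%). Among genes called higher at 24 h its share was 3.98%, and among genes called lower 4.08%. The E-box stood in 3 of 17 promoters of the clock list (17.6%, against 4.92%), and 3 copies of it stand in the Ciart window. Other lists held the E-box as often or more so, such as cholesterol synthesis (26.3%) and lysosome and autophagy (23.1%), and its share among all tested genes was 7.17%. The NF-kappa-B motif stood in 5 of 39 promoters of the cytokine list (12.8%, against 0.263%). The cell cycle homology region (TTTGAA) stood in 10 of 32 promoters of the mitosis list (31.2%, against 10.5%) and in 39.5% of the histone list. The cAMP response element stood in 3 of 15 of the MAPK inhibitor list (20%, against 1.58%). In the ATF4 list, from which Ppp1r15a is shown, it stood in 1 of 26 (3.85%), and its share among all tested genes was 2.68%. A match describes the letters and not a bound site, and nothing was read from a missing match.

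The RNA of the vehicle cells differed widely between the times, in both directions. Of 15594 genes tested, 8066 (51.7%) passed an adjusted p of 0.05 in edgeR's quasi-likelihood test, 4039 of them higher at 24 h (25.9%) and 4027 lower (25.8%). A difference of 1 log2 unit or more was reached by 1151 of the higher and 1152 of the lower genes, and the median log2 fold change (24 h minus 4 h) over all genes was 0.01. In 9672 genes (62.0%) all libraries of one time lay on the same side of all libraries of the other, and 7942 of the called genes were among them. These shares are the background for each gene list below, and a list with shares near them does not stand out. Strandedness of the library kit is not given in the sources used here, so a gene and its antisense partner cannot be told apart.

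**Figure D1:**
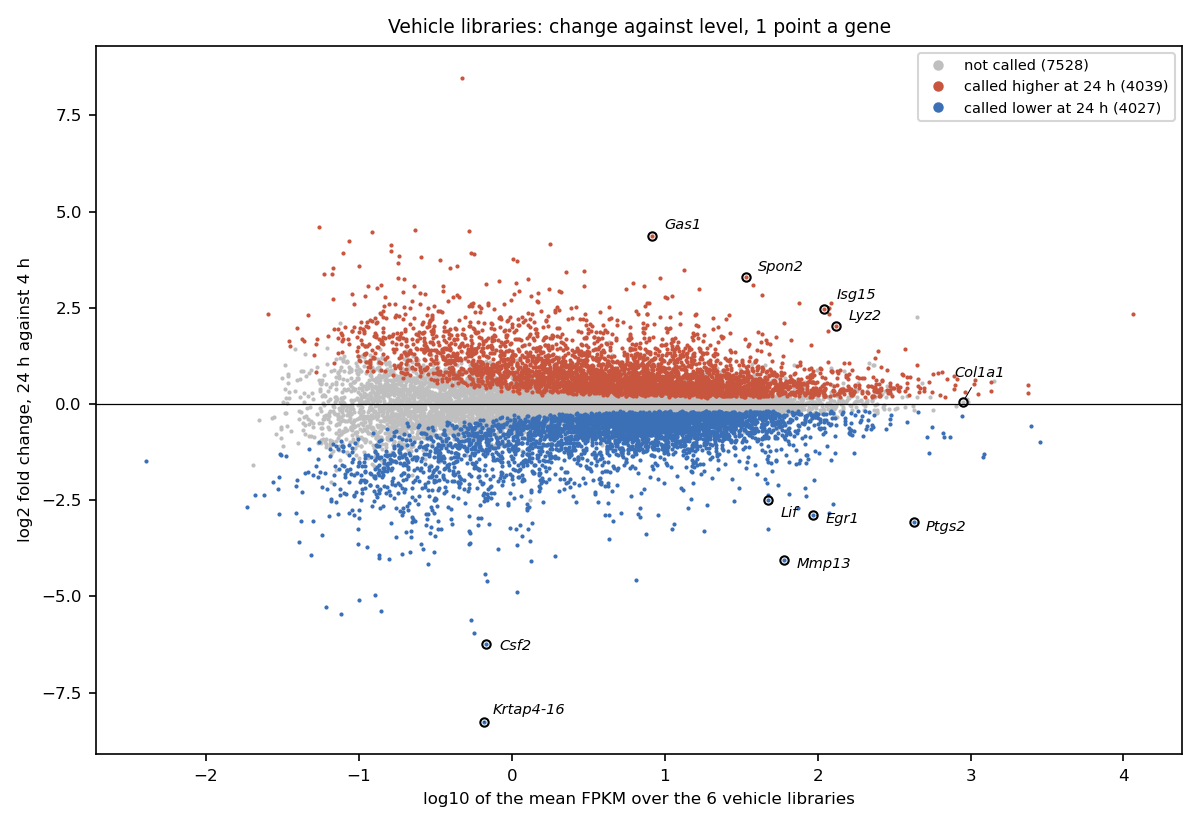
Log2 fold change at 24 h against 4 h (y axis) of each tested gene against its mean level (x axis, log10 FPKM), in the 6 vehicle libraries. The 4039 genes called higher and 4027 called lower lie on either side of 0, and the median over all genes is 0.01.

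Gene length moved with the direction. Protein-coding genes in the lowest quartile of gene length (up to 2878 bases) were called higher in 1230 and lower in 532 of 3357 cases, with a median of 0.24. In the highest quartile (over 6935 bases) 644 were higher and 1377 lower of 3356, with a median of -0.17. Length and the ribosomal RNA share are given as measured facts, and their part in the results below was not tested. Among transcription factor families, Fork_head genes were lower in 22 and higher in 3 of 27 (median -0.84), bZIP genes lower in 27 and higher in 7 of 46 (median -0.48), and C2H2 zinc finger genes lower in 170 and higher in 49 of 473 (median -0.23). The 10 members of the Rel homology family, which holds the NF-kappa-B subunits, were lower in 7 and higher in 0.

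**Figure D2:**
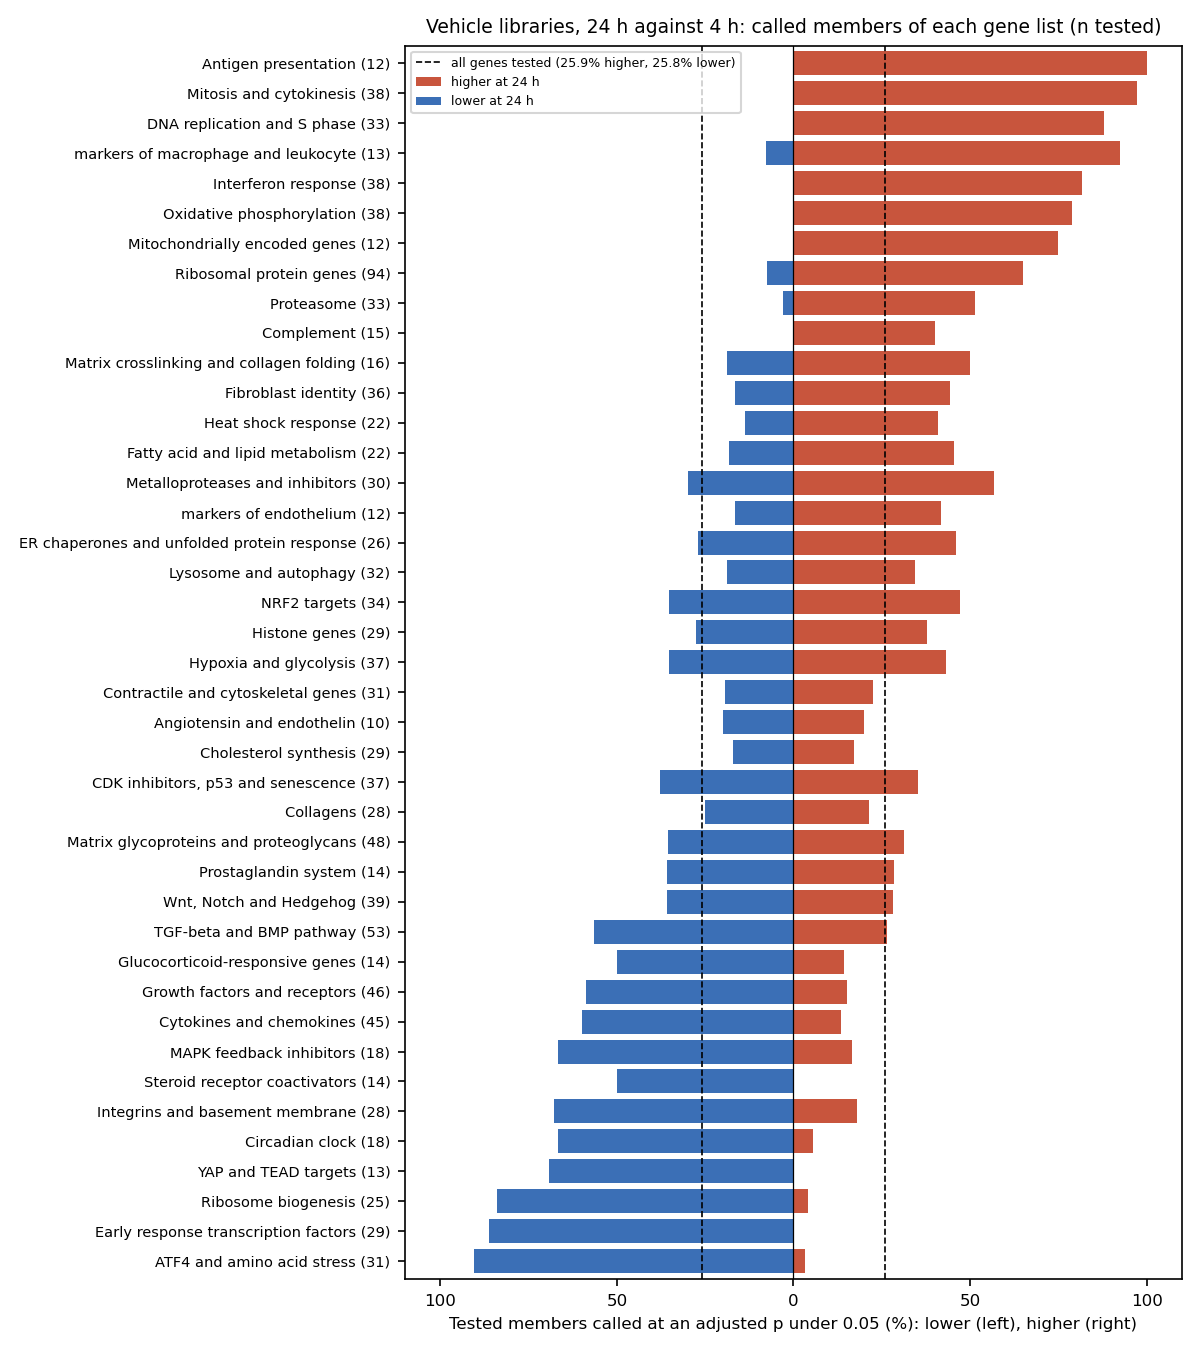
Share of the tested members of each gene list that were called higher (right) or lower (left) at 24 h in the vehicle libraries, for lists with 10 or more tested members, with dashed lines at the 25.9% and 25.8% of all genes. Antigen presentation (12 of 12 higher) and mitosis (37 of 38 higher) stand at the top, and early response factors (25 of 29 lower) and ATF4 targets (28 of 31 lower) at the bottom.

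The 12 largest rises among protein-coding genes were of mixed kinds. Gas1, a growth arrest gene and Hedgehog co-receptor (GRCm39 chromosome 13, 60322219 to 60325179), stood at 0.517, 0.510 and 1.27 FPKM at 4 h and at 16.5, 8.39 and 22.3 at 24 h, a 20.7-fold rise (log2 4.37 ± 0.52 SE, adjusted p = 0.000746). Spon2, a secreted matrix protein (chromosome 5, 33355528 to 33375799), went from 5.62, 4.43 and 8.82 to 68.5, 39.4 and 77.0 FPKM (9.81-fold, log2 3.29 ± 0.36, adjusted p = 0.000513). Neither gene's groups overlapped, and in each the third replicate was highest and the second lowest at 24 h. The same order within the 24 h group held for Olfml1 (log2 4.15), Heyl, a Notch target (3.42), Art4 (3.20) and Olfr1033 (3.15), all of them called. The call of Olfr1033 was lost without the first 4 h library (adjusted p = 0.0527). The lipid transporter gene Abca8a rose by log2 3.13 ± 0.44, from 0.870, 0.938 and 2.01 to 12.3, 6.64 and 14.4 FPKM. Dclk3 (log2 4.49), Oas1g (3.89), the histone gene H3c10 (3.71), and the leukocyte genes Fcrls (3.92) and Ccl12 (3.76) completed the 12 largest rises. The last 5 were close to undetected at 4 h.

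The 12 largest falls among protein-coding genes were of mixed kinds. Mmp13, the collagenase 3 gene (chromosome 9, 7272514 to 7283331), dropped from 149, 120 and 74.7 FPKM to 7.04, 6.18 and 7.44, 16.6-fold lower (log2 -4.06 ± 0.27, adjusted p = 2.98e-05). Il1rl1, the receptor of interleukin 33, dropped from 3.22, 2.50 and 1.90 FPKM to 0.106, 0.125 and 0.223 (log2 -4.07 ± 0.28, adjusted p = 5.98e-06). The groups of these genes lay far apart, although the 4 h libraries of Mmp13 spread widely, with the third the lowest. The keratinocyte envelope gene Sprr2h fell from 16.6, 12.6 and 8.26 FPKM to 0.821, 0.549 and 0.167 (log2 -4.57 ± 0.42), and its near copy Sprr2g had 60 counts at 4 h and 1 at 24 h. The amino acid transporter gene Slc6a19 fell by 4.89 on the log2 scale, the cadherin gene Cdh6 by 3.55, and the metallothionein gene Mt2 by 3.76. Counts at 24 h were few for several of these genes. Csf2, the cytokine GM-CSF, had 90 counts at 4 h and 1 at 24 h, a ratio of 103 with an exact 95% counting interval of 18 to 4113. Stmn4 had 184 and 3 counts (ratio 70.2, interval 23.6 to 344). Krtap4-16 had 108 counts at 4 h and 0 in all 24 h libraries, at least 41.2-fold lower against a floor of 3 counts over the group.

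Of 1087 long noncoding RNAs tested, 132 were called higher and 173 lower, smaller shares than the 25.9% and 25.8% of all genes. The unnamed gene ENSMUSG00000121069 (chromosome 15, 82247110 to 82252084) rose from 10.4, 8.43 and 12.9 FPKM to 82.9, 60.7 and 83.6 (log2 2.84 ± 0.18, adjusted p = 1.03e-05). Gm33228 (log2 2.40), AW011738 (2.27) and Gm13293 (1.95) rose from low levels, and 1700017M07Rik (-3.95), Gm37986 (-3.43), Gm15728 (-3.08) and Gm28514 (-4.59) fell, also at low levels. ENSMUSG00000120913, picked after its values were seen, had no count at 4 h and 145 at 24 h, at least 42.2-fold higher.

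The most abundant protein-coding genes changed less. The matricellular genes Ccn2 (1840, 1663 and 1708 to 661, 722 and 618 FPKM) and Thbs1 (1829, 1679 and 1679 to 708, 735 and 678 FPKM) fell by 1.38 and 1.29 on the log2 scale. Timp1 fell by 0.57. Eef1a1 (log2 0.28), Actb (0.34), Rplp0 (0.26), Rplp1 (0.49) and mt-Co1 (0.58) rose, each with non-overlapping groups. Lgals1 did not pass the test (log2 0.60 ± 0.26, adjusted p = 0.0967): its first 4 h library stood at 681 FPKM and the others at 1366 and 1357. Without that library its log2 change was 0.33, with an adjusted p of 2.36e-05.

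Early response transcription factors were lower at 24 h almost throughout. Of 29 tested, 25 fell, 0 rose and 4 did not pass (median -1.20, against 0.01 for all genes). Their summed level was 3634 to 4446 CPM at 4 h and 1670 to 1764 at 24 h. The EGR, NR4A and IER group fell in 11 of 12. Egr2 stood at 31.8, 33.7 and 32.5 FPKM at 4 h and at 3.11, 3.33 and 3.51 at 24 h, 9.85-fold lower (log2 -3.30 ± 0.084, adjusted p = 3.57e-08). Egr1 went from 145, 179 and 166 FPKM to 22.0, 22.4 and 22.1 (log2 -2.88 ± 0.090). Egr3 fell by 2.89, and Egr4, low throughout, changed by -4.42. The replicates of each time lay close together for Egr1, Egr2 and Egr3, with the groups far apart.

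In the FOS and JUN group 7 of 9 fell. The largest falls there, picked after their values were seen, were those of Fosb (4.11, 4.77 and 4.69 to 0.692, 0.937 and 0.713 FPKM, log2 -2.54) and of the stress factor Atf3 (26.1, 26.4 and 23 to 4.42, 4.46 and 4.74 FPKM, log2 -2.47). Fos itself, low at 4 h already, fell by only 0.62 ± 0.14 (3.99, 5.15 and 5.54 to 3.11, 3.01 and 3.40 FPKM, adjusted p = 0.00481). In the Kruppel-like and MYC group 7 of 8 fell, Myc among them (107, 119 and 109 to 39.3, 41.6 and 35.7 FPKM, log2 -1.52 ± 0.082).

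MAPK feedback inhibitors, which are induced by the pathway they shut off, fell in 12 of 18 and rose in 3 (median -0.54). Dusp5, a nuclear ERK phosphatase, dropped from 83.1, 82.5 and 71.4 FPKM to 15.2, 16 and 14.8 (log2 -2.37 ± 0.085, adjusted p = 1.91e-07). Dusp6 and Dusp10 each fell by 1.36, and Errfi1, an inhibitor of the EGF receptor, by 1.43. The 3 rises, named after their values were seen, went the other way: Spry1 (log2 1.35), Dusp14 (0.75) and Dusp1 (0.46).

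**Figure D3:**
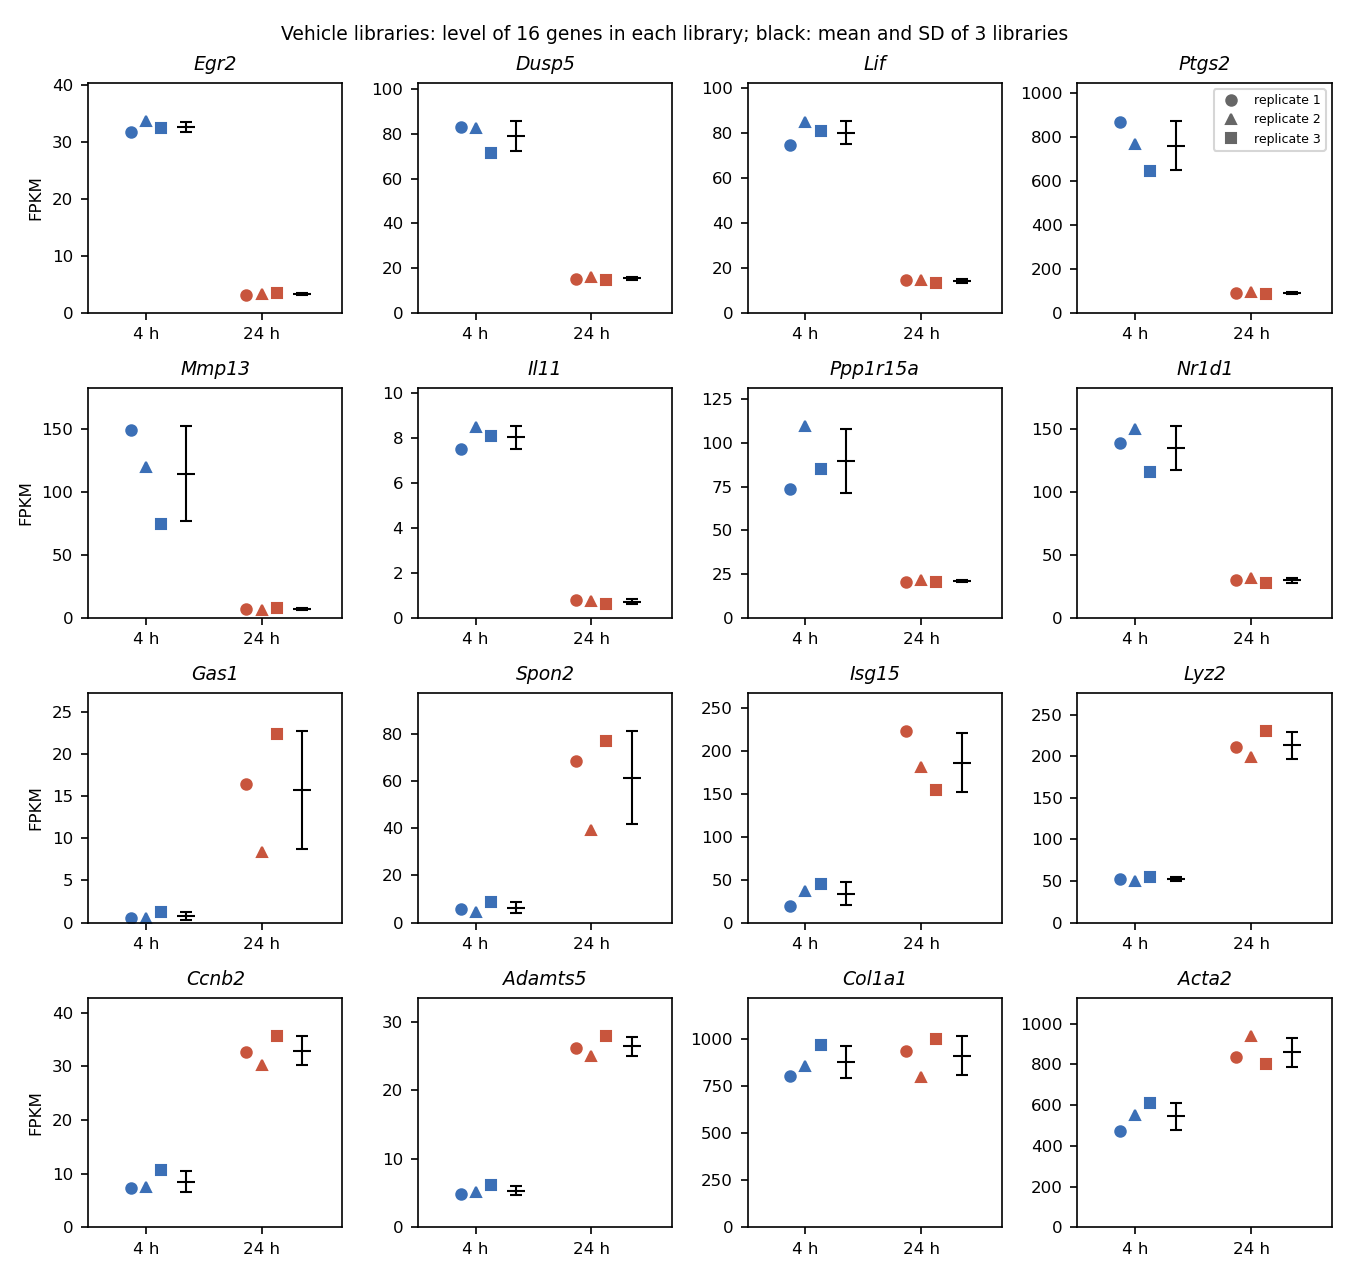
FPKM of 16 genes in each vehicle library at 4 h and 24 h (symbols mark replicate numbers), with the mean and SD of 3 libraries in black, each panel from 0. Groups do not overlap in 15 of the panels, such as Egr2 at 31.8 to 33.7 against 3.11 to 3.51, while those of Col1a1 overlap.

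Growth factor genes followed the same direction. Of 46 tested, 27 fell and 7 rose (median -0.63), and their summed level was 7003 to 7059 CPM at 4 h and 4259 to 4516 at 24 h. In the EGF family 7 of 9 fell and 0 rose, including the ligand gene Areg (log2 -2.52). Lif, a cytokine of the interleukin 6 family, dropped from 74.8, 84.7 and 81.1 FPKM to 14.7, 14.6 and 13.2 (log2 -2.50 ± 0.083, adjusted p = 1.57e-07). Gdnf, a neurotrophic factor, dropped from 9.33, 10.1 and 7.79 to 1.30, 1.49 and 1.03 FPKM (log2 -2.84 ± 0.15). Vegfa, the main vascular growth factor, fell by 1.56 (99.3, 116 and 108 to 36.4, 37.4 and 35.9 FPKM), whereas its relative Vegfd rose by 2.04 ± 0.26 (5.70, 5.19 and 8.70 to 27.0, 19.4 and 33.9 FPKM). Angpt1, picked after its values were seen, rose by 3.07 from very low levels. In the PDGF and FGF group 4 rose and 7 fell of 15, and the receptor gene Pdgfra rose by 0.48 ± 0.083. In the insulin-like growth factor axis 7 of 9 fell and 0 rose.

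In the TGF-beta and BMP pathway 30 of 53 members fell and 14 rose (median -0.41). Extracellular and intracellular inhibitors fell in 10 of 14 and rose in 2 (median -0.71). The BMP antagonist Grem1 dropped from 41.5, 33.5 and 23.2 FPKM to 5.47, 5.11 and 5.27 (log2 -2.63 ± 0.19, adjusted p = 2.13e-05), and the antagonist Nog from 7.0, 8.61 and 7.0 to 1.69, 1.79 and 1.28 (log2 -2.25 ± 0.17). Among 16 ligand and latency genes 8 fell and 4 rose, with Bmp2 down by 2.53. Among 13 receptors and SMAD genes 8 fell and 3 rose. The 10 targets were all non-overlapping but divided: 5 rose and 4 fell. Meox1, a homeobox gene of activated fibroblasts, fell from 21.4, 26.4 and 26.2 to 3.79, 4.12 and 3.40 FPKM (log2 -2.71 ± 0.12), and Ccn1 (log2 -0.75) and Ccn2 fell with it.

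The 5 targets that rose were the inhibitor of differentiation genes, which are direct BMP targets, and Tgfbi; all were named after their values were seen. Id3 went from 40.7, 46.8 and 61.7 FPKM to 191, 170 and 196 (log2 1.90 ± 0.14), Id1 from 19.5, 30.1 and 34.2 to 70.4, 68.6 and 67.8 (1.30 ± 0.18), and Id2 from 12, 10.6 and 11.9 to 30.9, 31.3 and 30.6 (1.43 ± 0.080). Id4 rose by 1.5 and Tgfbi by 1.85 ± 0.37. Smad6, an inhibitory SMAD that BMP signals induce, was 1 of the 2 inhibitors that rose (18, 20.7 and 28.0 to 72.1, 70.3 and 68.1 FPKM, log2 1.66 ± 0.14).

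YAP and TEAD target and partner genes fell in 9 of 13 and rose in 0 (median -0.41), with Ccn2, Ajuba (log2 -0.96), Ccn1 and Vgll3 (-0.74) leading. In the Wnt, Notch and Hedgehog list the shares were near the background: 11 rose and 14 fell of 39 (median -0.13). Its extremes were large: besides Gas1 and Heyl, the Wnt antagonist Sfrp2 rose from 0.445, 0.508 and 0.822 to 3.0, 2.01 and 5.11 FPKM (log2 2.52 ± 0.38), and Wnt11 dropped from 13, 20.2 and 14.8 to 2.11, 2.15 and 2.29 (log2 -2.87 ± 0.16, adjusted p = 1.37e-06).

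Cytokine, chemokine and NF-kappa-B genes were mostly lower at 24 h, 27 of 45 against 6 that rose (median -0.70). Interleukin and TNF family genes fell in 10 of 15, whereas the chemokines were close to the background, with 4 of 13 lower, 3 higher and a median of -0.12. Il11, a cytokine of fibroblast activation, dropped from 7.48, 8.48 and 8.05 FPKM to 0.769, 0.760 and 0.587, 11.3-fold lower (log2 -3.50 ± 0.15, adjusted p = 5.08e-07). Cxcl2, a neutrophil chemokine, dropped from 1.60, 3.27 and 1.13 to 0.0950, 0.233 and 0.152 FPKM (log2 -3.66 ± 0.47). Il6 changed less, from 9.75, 9.62 and 11.4 to 7.12, 7.64 and 7.07 FPKM (log2 -0.49 ± 0.10, adjusted p = 0.00237). Ccl2, the monocyte chemokine, passed (log2 -0.85 ± 0.21, adjusted p = 0.0107) but not without the first 4 h library (adjusted p = 0.110). NF-kappa-B subunits and feedback genes fell in 13 of 17 and rose in 0 (median -0.71). The second 4 h library was the highest of its time for 14 of these 17 genes, and for 19 of the 29 early response genes.

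ATF4 targets, the genes of the amino acid and integrated stress response, formed the list with the largest share of falls: 28 of 31 fell and 1 rose (median -0.70). In 30 of the 31 the groups did not overlap, and their summed level was 6640 to 7001 CPM at 4 h against 4053 to 4341 at 24 h. Ppp1r15a, which encodes the GADD34 subunit of the eIF2-alpha phosphatase, dropped from 74.0, 110 and 85.0 FPKM to 20.3, 21.7 and 20.7 (log2 -2.10 ± 0.13, adjusted p = 2.42e-06). Chac1, a glutathione-degrading enzyme, dropped from 20.9, 25.8 and 27.1 to 6.26, 6.05 and 5.46 FPKM (log2 -2.06 ± 0.12). Nupr1 (log2 -1.50) and the arginine transporter gene Slc7a3 (-1.46) fell too. The transcription factor gene Atf4, picked after its values were seen, went from 127, 196 and 182 to 91.9, 98.9 and 90.5 FPKM (log2 -0.84).

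The endoplasmic reticulum list divided: 12 of 26 rose and 7 fell (median 0.08). The stress sensors Ern1 (log2 -1.51) and Atf6 (-0.87) and the chaperone gene Dnajb9 (-0.98) fell, and Sdf2l1 rose by 0.72. Heat shock genes rose in 9 of 22 and fell in 3, by small amounts (median 0.17, range from -0.43 to 0.47). Proteasome subunit genes rose in 17 of 33 and fell in 1 (median 0.26), with Psma7 (log2 0.70) and Psmb1 (0.65) in front.

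NRF2, named in the series' title, switches on antioxidant genes. It did not pass the test at the level of its own gene. Nfe2l2 stood at 52.1, 45.7 and 44.7 FPKM at 4 h and at 45.6, 45.3 and 44.9 at 24 h (log2 -0.07 ± 0.077, adjusted p = 0.469). Of its listed targets 15 rose and 8 fell of 28 (median 0.22). The largest changes were falls: Hmox1, heme oxygenase 1, went from 698, 866 and 697 FPKM to 319, 315 and 308 (log2 -1.26 ± 0.093, adjusted p = 5.67e-06), and the cystine transporter gene Slc7a11 from 5.72, 4.08 and 3.94 to 1.78, 1.71 and 1.54 (log2 -1.45 ± 0.14). Among 6 regulators, the small MAF genes Maff (log2 -1.11) and Mafk (-0.99) fell, and Keap1, which holds NRF2 in check, rose by 0.45 ± 0.090. Nqo1 did not pass (log2 0.21 ± 0.11, adjusted p = 0.140), but had an adjusted p of 0.0319 without the first 4 h library.

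Interferon-stimulated genes rose in 31 of 38 and fell in 0 (median 1.43). Their summed level was 894 to 1239 CPM at 4 h and 2211 to 3035 at 24 h. Isg15, a ubiquitin-like protein, went from 19.6, 36.9 and 44.9 FPKM to 224, 182 and 155 (5.54-fold, log2 2.47 ± 0.31, adjusted p = 0.000863). Oas1a, a sensor of double-stranded RNA with close copies in the genome, went from 2.0, 2.32 and 1.78 to 13, 10.1 and 9.64 FPKM (log2 2.42 ± 0.16). Irf7, the regulator of the type I interferon response, rose by 2.37 ± 0.26 and the guanylate-binding protein gene Gbp3 by 2.35 ± 0.19. The groups did not overlap in 30 of the 38 genes. Within the groups the libraries differed in a common way: the third 4 h library was the highest of its time in 31 genes, and the third 24 h library the lowest of its time in 33. Ifit1, picked after its values were seen, did not pass and had overlapping groups (13.8, 19.1 and 32.4 against 56.7, 38.2 and 27.7 FPKM, log2 0.91 ± 0.39, adjusted p = 0.104).

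All 12 genes of the antigen presentation list rose (median 0.90), each with non-overlapping groups. The immunoproteasome subunit gene Psmb8 went from 0.453, 0.681 and 0.668 FPKM to 3.95, 2.99 and 2.75 (log2 2.44 ± 0.21, adjusted p = 1.23e-05), Psmb10 rose by 1.27, and the peptide transporter gene Tap1 by 1.11. Complement genes rose in 6 of 15 and fell in 0, led by the 3 chains of C1q: C1qc went from 1.14, 1.13 and 1.48 FPKM to 9.36, 9.44 and 11 (log2 2.99 ± 0.15, adjusted p = 7.8e-07).

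C1q is made chiefly by macrophages, and the other macrophage and leukocyte markers rose with it. Of 13 tested of 15 listed, 12 rose (median 1.99), and their summed level was 109 to 120 CPM at 4 h and 376 to 438 at 24 h. Lyz2, lysozyme of the myeloid lineage, went from 51.8, 50.3 and 55.1 FPKM to 211, 199 and 230 (4.07-fold, log2 2.02 ± 0.082, adjusted p = 3.93e-07). Tyrobp rose by 2.34, Adgre1, the F4/80 antigen, by 2.29, and the lysosomal protease gene Ctss by 2.01. The defining leukocyte gene Ptprc was low in all libraries, from 0.0699 to 0.111 FPKM at 4 h and from 0.186 to 0.311 at 24 h. The T cell gene Cd3e was in neither table, and the B cell gene Cd79a, picked after its values were seen, was the only member that fell (log2 -2.19). In the lysosome and autophagy list 11 of 32 rose and 6 fell (median 0.07). The part of macrophage RNA in the rise of interferon and complement genes and of Ctss was not tested. In such bulk samples, the number of cells of a type and their RNA per cell cannot be told apart.

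**Figure D4:**
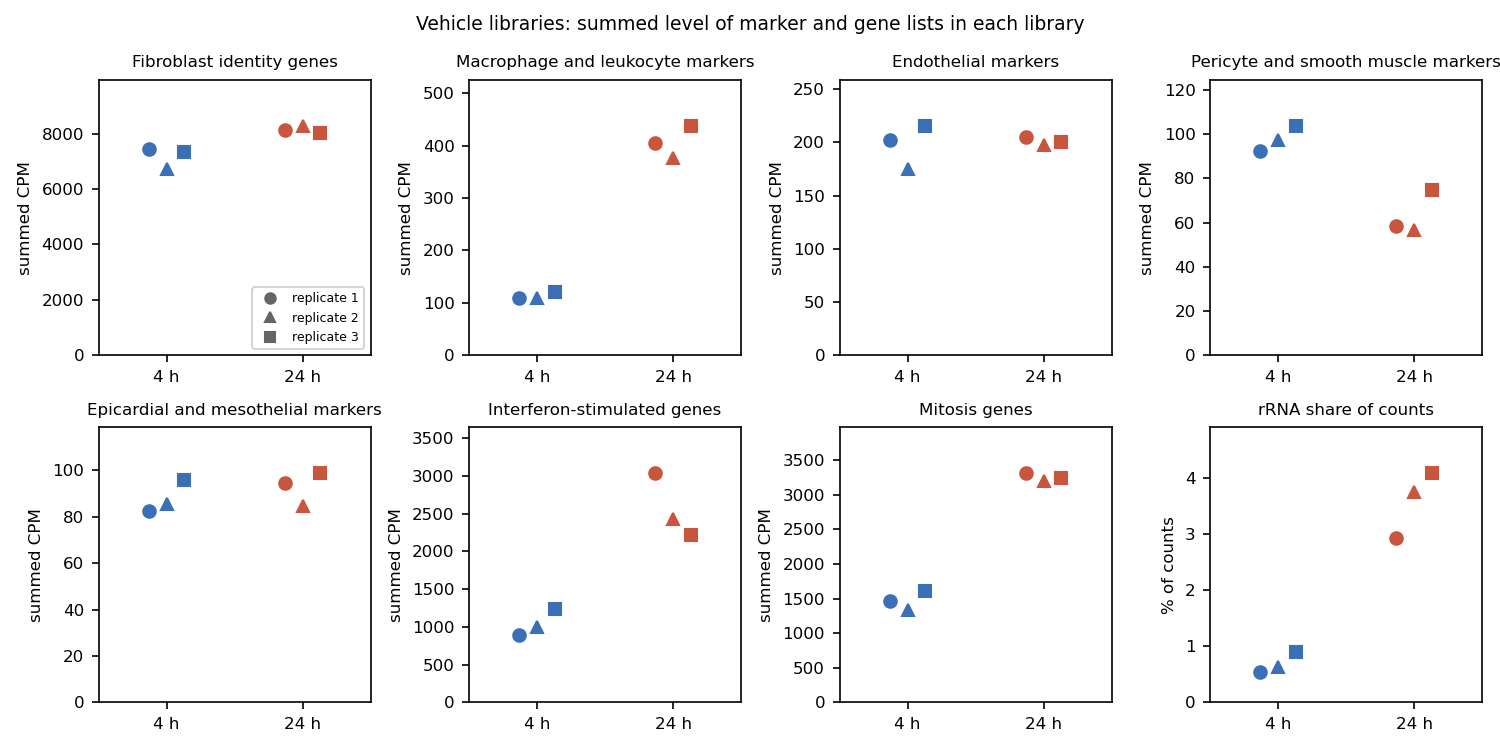
Summed CPM of marker and gene lists, and the ribosomal RNA share of counts, in each vehicle library at 4 h and 24 h, each panel from 0 (symbols mark replicate numbers). Macrophage markers (109 to 120 against 376 to 438), interferon-stimulated genes, mitosis genes and ribosomal RNA are higher in all 24 h libraries. Pericyte markers are lower, and endothelial and epicardial sums overlap. Lyz2, Ptprb and Lrrn4 hold the most counts in the macrophage, endothelial and epicardial sums.

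Cell cycle genes were higher at 24 h. Of 38 mitosis genes 37 rose and 0 fell (median 1.29), and the groups of all 38 did not overlap. Their summed level was 1331 to 1608 CPM at 4 h and 3206 to 3314 at 24 h. Ccnb2, cyclin B2, went from 7.31, 7.54 and 10.7 FPKM to 32.7, 30.3 and 35.7 (3.86-fold, log2 1.95 ± 0.15, adjusted p = 6.13e-06). The kinetochore gene Nuf2 rose by 1.82, the centromere histone gene Cenpa by 1.7, and the kinase gene Plk1 by 1.68. Ccna2 (log2 1.23 ± 0.095) and the proliferation marker Mki67 (9.75, 9.49 and 12.2 to 20.1, 20.9 and 23.2 FPKM, log2 1.03 ± 0.11) rose less. Of 33 DNA replication and S phase genes 29 rose and 0 fell (median 0.62), with thymidine kinase Tk1 (log2 1.58) and thymidylate synthase Tyms (1.15) among the largest.

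The group of CDK inhibitors, which brake the cycle, and G1 cyclins, which drive it, rose in 10 of 17 and fell in 2 (median 0.46), with Cdkn2a up from 1.2, 1.42 and 1.32 to 5.63, 5.08 and 5.40 FPKM (log2 2.04 ± 0.17, adjusted p = 1.01e-05) and Cdkn2d up by 1.53. p53 targets fell in 12 of 20 and rose in 3 (median -0.37), with the stress genes Gadd45b (147, 163 and 114 to 26.9, 27.3 and 26.1 FPKM, log2 -2.40 ± 0.12) and Plk2 (-1.44) in front. Linker and core histone genes had no settled direction: 11 of 29 rose and 8 fell, and the median of -0.11 became 1.07 when no filter on low counts was applied. H3c11 (log2 2.93), H3c1 (2.85) and H3c6 (2.06) rose from low levels, and the near-identical copies in this family make single members uncertain.

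Oxidative phosphorylation and ribosomal protein genes were mostly higher at 24 h, and ribosome biogenesis factors mostly lower. Nuclear genes of oxidative phosphorylation rose in 30 of 38 and fell in 0 (median 0.45), and their summed level was 3494 to 3913 CPM at 4 h and 4757 to 4908 at 24 h. Uqcrb, of complex III, went from 16.6, 31.7 and 26.3 to 51.6, 57.0 and 56.0 FPKM (log2 1.14 ± 0.20, adjusted p = 0.00157), and Atp5o and Ndufa5 each rose by 1.13. In all 3 the first 4 h library was the lowest. Mitochondrially encoded genes rose in 9 of 12 and fell in 0 (median 0.57), mt-Co2 by 1.78 ± 0.15. Genes of the ribosomal protein list rose in 61 of 94 and fell in 7 (median 0.42), with Rps25 (log2 0.89) and Rps27 (0.89) as examples. This list was taken by symbol alone, Rpl or Rps followed by a number. The pattern also matches kinase genes with an Rps symbol and misses Rplp0 and Rplp1, so its counts are not those of ribosomal proteins alone. Ribosome biogenesis factors, many of them MYC targets, fell in 21 of 25 and rose in 1 (median -0.60). The processing factor gene Heatr1 went from 28.8, 23 and 22.0 to 10.3, 11.2 and 10.5 FPKM (log2 -1.20 ± 0.10), and the RNA polymerase I subunit gene Polr1b from 16.3, 15.4 and 14.9 to 6.88, 7.15 and 6.78 (-1.16 ± 0.073). Oxidative phosphorylation and ribosomal protein genes are mostly short, and short genes were called higher more often, as given above. The part of length in the calls of these lists was not tested.

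In the hypoxia and glycolysis list 16 rose and 13 fell of 37. Adm, the vasodilator adrenomedullin, rose from 24.5, 35.5 and 36.4 FPKM to 98.2, 105 and 101 (log2 1.66 ± 0.14), while the hypoxia gene Ndrg1 dropped from 11.2, 10.1 and 8.80 to 1.80, 1.83 and 2.15 (log2 -2.38 ± 0.12, adjusted p = 7.8e-07). The lactate transporter gene Slc16a1 fell by 1.23. Lipid genes rose in 10 of 22 and fell in 4, Cd36 by 1.27 and Scd2 by 0.91, and the fuel switch gene Pdk4 fell by 1.18. Cholesterol synthesis genes showed fewer calls than the background, 5 higher and 5 lower of 29.

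Collagen genes as a list did not move to either side: 6 rose and 7 fell of 28, close to the background. Col1a1, the main fibrillar collagen, stood at 805, 855 and 970 FPKM at 4 h and at 938, 796 and 1001 at 24 h, overlapping groups without a call (log2 0.06 ± 0.10, adjusted p = 0.660). Col3a1 went from 123, 130 and 180 to 350, 220 and 419 FPKM (log2 1.19 ± 0.26, adjusted p = 0.00947), but did not pass without the first 4 h library (adjusted p = 0.104). The fibril-associated Col12a1 fell from 96.1, 91.7 and 100.2 to 29.8, 36.3 and 35.5 FPKM (log2 -1.50 ± 0.088), and Col5a3 fell by 2.23. The second 24 h library was the lowest of its time in 20 of the 28 collagen genes, and in 38 of the 48 matrix glycoprotein genes.

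Matrix glycoproteins and proteoglycans divided, 15 higher and 17 lower of 48. Emilin1, an elastic fibre protein, rose from 14.2, 17.5 and 21.3 FPKM to 69.1, 52.3 and 71.3 (log2 1.86 ± 0.17), and Mfap2, of the same fibres, by 2.40. Thbs1 and the hyaluronan synthase gene Has1 (log2 -2.17) fell, and Postn, periostin, fell slightly (72.2, 63.9 and 66.0 to 53.2, 45.2 and 51.9 FPKM, log2 -0.43 ± 0.084). Collagen folding and crosslinking genes rose in 8 of 16 and fell in 3. The collagen chaperone gene Serpinh1 rose by 0.73 (479, 619 and 655 to 984, 958 and 959 FPKM), while lysyl oxidase, Lox, fell by 0.85 (987, 924 and 928 to 519, 557 and 503 FPKM).

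Matrix proteases rose in 13 of 20 and fell in 4 (median 0.45), against the direction of Mmp13. Adamts5, an aggrecanase, went from 4.80, 5.14 and 6.11 FPKM to 26.2, 25 and 27.9 (4.93-fold, log2 2.30 ± 0.10, adjusted p = 5.36e-07). Mmp10 fell by 1.75 ± 0.23. Serpinb2, an inhibitor of plasminogen activators, dropped from 95.1, 102 and 60.9 to 8.73, 9.73 and 8.59 FPKM (log2 -3.25 ± 0.19). Mmp10, Mmp13 and Serpinb2 are the 3 genes whose promoters are printed above for their AP-1 letters, and in each the third 4 h library was the lowest of its time. Integrin genes fell in 11 of 16 and rose in 4, and laminins and nidogens fell in 8 of 12 and rose in 1. Examples are Lama5 (log2 -1.31), Itga2 (-1.26), Itga9 (-1.08) and Lama2 (-1.07).

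Contractile genes, the mark of myofibroblasts, rose in 7 of 31 and fell in 6, shares below the background. Acta2, smooth muscle actin, went from 475, 551 and 608 FPKM to 835, 939 and 804 (log2 0.66 ± 0.10, adjusted p = 0.000391). Myl9 (log2 1.09), Tpm2 (0.90) and Csrp1 (0.80) also rose, and the largest falls in the list were those of Myocd, a smooth muscle transcription coactivator (-1.30), and Des, desmin (-1.17). Fibroblast identity genes rose in 16 of 36 and fell in 6 (median 0.28). The cardiac transcription factor gene Hand2 went from 3.37, 7.41 and 7.40 to 15.7, 16.2 and 16.5 FPKM (log2 1.42 ± 0.27), and the surface marker Ly6a, Sca-1, from 4.32, 5.32 and 6.22 to 19.3, 9.96 and 22.1 (log2 1.7 ± 0.29). Tcf21, the lineage factor of resident cardiac fibroblasts, rose by 0.86 ± 0.18 (30.6, 29.6 and 45.8 to 68.0, 53.9 and 69.7 FPKM). The calls of Ly6a and Tcf21 were lost without the first 4 h library (adjusted p = 0.0672 and 0.102). Penk, the enkephalin precursor, fell by 2.62.

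Markers of neighbouring cell types moved unevenly. Of 7 epicardial and mesothelial markers 5 fell and 1 rose (median -1.59), although their summed level overlapped between the times (82.4 to 95.6 and 84.4 to 98.7 CPM). Krt19 dropped from 10.5, 13.9 and 11.4 FPKM to 1.89, 3.25 and 2.72 (log2 -2.20 ± 0.19), Msln fell by 1.7 and Upk1b by 1.59, and Lrrn4 rose by 1.00. Lrrn4 had the most counts of these markers in every library and so weighs most in the sum. Of 7 pericyte and smooth muscle markers 4 fell, with Cspg4 (NG2) from 5.61, 5.82 and 5.98 to 1.03, 1.31 and 1.23 FPKM (log2 -2.29 ± 0.10), and 2 rose, Notch3 (1.25) and Mcam (0.93). Their sum was 92.5 to 104 CPM at 4 h and 56.5 to 74.7 at 24 h. Of 12 endothelial markers 5 rose and 2 fell. The defining gene Cdh5 stood at 1.43 to 1.68 FPKM at 4 h and 1.99 to 2.44 at 24 h, and Kdr fell by 2.39.

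Clock genes fell in 12 of 18 and rose in 1 (median -0.55). The repressor gene Nr1d1, REV-ERB-alpha, went from 139, 150 and 116 FPKM to 29.9, 31.3 and 27.7 (log2 -2.18 ± 0.10, adjusted p = 7.08e-07), Bhlhe40 fell by 1.69, Ciart by 1.47 and Nr1d2 by 1.14. Both the activator gene Arntl (log2 -0.64), BMAL1, and the repressor gene Per1 (-0.82) fell, and the output gene Dbp rose (0.71); these 3 were picked after their values were seen. Genes known to respond to glucocorticoids fell in 7 of 14 and rose in 2, Sgk1 by 1.33 down (130, 118 and 120 to 49.6, 49.2 and 47.2 FPKM) and Cebpd by 1.31 up. Steroid receptor coactivator genes, the class the series' title names, fell in 7 of 14 and rose in 0 (median -0.18), with Ep300 (log2 -0.89), Ncoa1 (-0.48) and Ncoa6 (-0.47).

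Ptgs2, cyclooxygenase 2 (chromosome 1, 149975782 to 149983978), was among the most expressed genes that fell strongly: 867, 765 and 644 FPKM at 4 h against 89.7, 92.9 and 87.4 at 24 h, 8.43-fold lower (log2 -3.08 ± 0.11, adjusted p = 1.91e-07). The rest of the prostaglandin system divided: 4 rose and 5 fell of 14 in all, with the prostacyclin receptor gene Ptgir up by 1.25 and Ptger4 by 0.67. In the angiotensin and endothelin list 2 of 10 rose and 2 fell (median -0.10, range from -1.99 to 1.56). Edn1, endothelin 1, fell by 0.66 ± 0.12, and Nppb, the natriuretic peptide B gene, by 1.99 ± 0.46 from 1.30 to 2.21 FPKM at 4 h.

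The libraries of cells given MCB-613-10-1 share no sample with the vehicle libraries and were compared over the same times. Of 8048 genes called in vehicle and present in the fit of all 12 libraries, 3485 (43.3%) were called in the same direction in treated cells, 2056 (25.5%) in the opposite direction, and 2507 were not called. The difference between the 2 changes was called in 8796 of 16341 genes (53.8%), and in 5284 of the 8048 (65.7%). Among the genes without a called difference were Nr1d1 (log2 -2.22 in treated cells, difference -0.05 ± 0.15, adjusted p = 0.805), Il11 (-3.35, difference 0.14 ± 0.26, adjusted p = 0.684) and Myc (-1.69, difference -0.17 ± 0.12, adjusted p = 0.234). These p-values do not show that the changes were equal.

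Cell cycle, interferon and matrix lists differed between vehicle and treated cells. The shares of all tested genes called higher or lower in treated cells are not given here. How far a list's treated counts stand out therefore cannot be read. Other lists fell in treated cells too, such as Wnt, Notch and Hedgehog (35 of 39 lower, 0 higher) and contractile genes (25 of 31 lower, 0 higher). Mitosis genes, with 37 of 38 higher at 24 h in vehicle, were lower in 33 and higher in 3 in treated cells (median -1.48), and the difference was negative and called in 35. For Ccna2 the change was 1.23 in vehicle and -2.41 in treated cells (adjusted p of the difference 4.54e-10). Interferon genes were lower in 17 and higher in 3 of 38 in treated cells, with 35 called negative differences. Isg15, for example, changed by 0.07 ± 0.41 there. Collagen genes, without a common direction in vehicle, were lower in 26 of 28 in treated cells (median -1.34), Col1a1 by 1.53. Macrophage markers rose in 7 and fell in 1 of 13 in treated cells (median 0.62), with 9 called negative differences.

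ATF4, proteasome and heat shock lists differed in the other direction. Other lists rose in treated cells too, such as lysosome and autophagy (26 of 32 higher, 1 lower), and the same limit holds. ATF4 targets, which fell in vehicle, rose in 19 and fell in 3 of 31 in treated cells (median 0.33), and the difference was positive and called in 27. Ppp1r15a changed by 0.97 there, a difference of 3.06 ± 0.15 (adjusted p = 1.92e-10). All 33 proteasome genes rose in treated cells (median 1.53), each with a called positive difference. Hmox1 rose by 0.69 in treated cells where it fell by 1.26 in vehicle (difference 1.94 ± 0.11, adjusted p = 1.43e-10). For oxidative phosphorylation (27 higher, 3 lower, median 0.43) and mitochondrially encoded genes (10 of 12 higher, median 0.63), most treated members moved in the vehicle's direction.

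**Figure D5:**
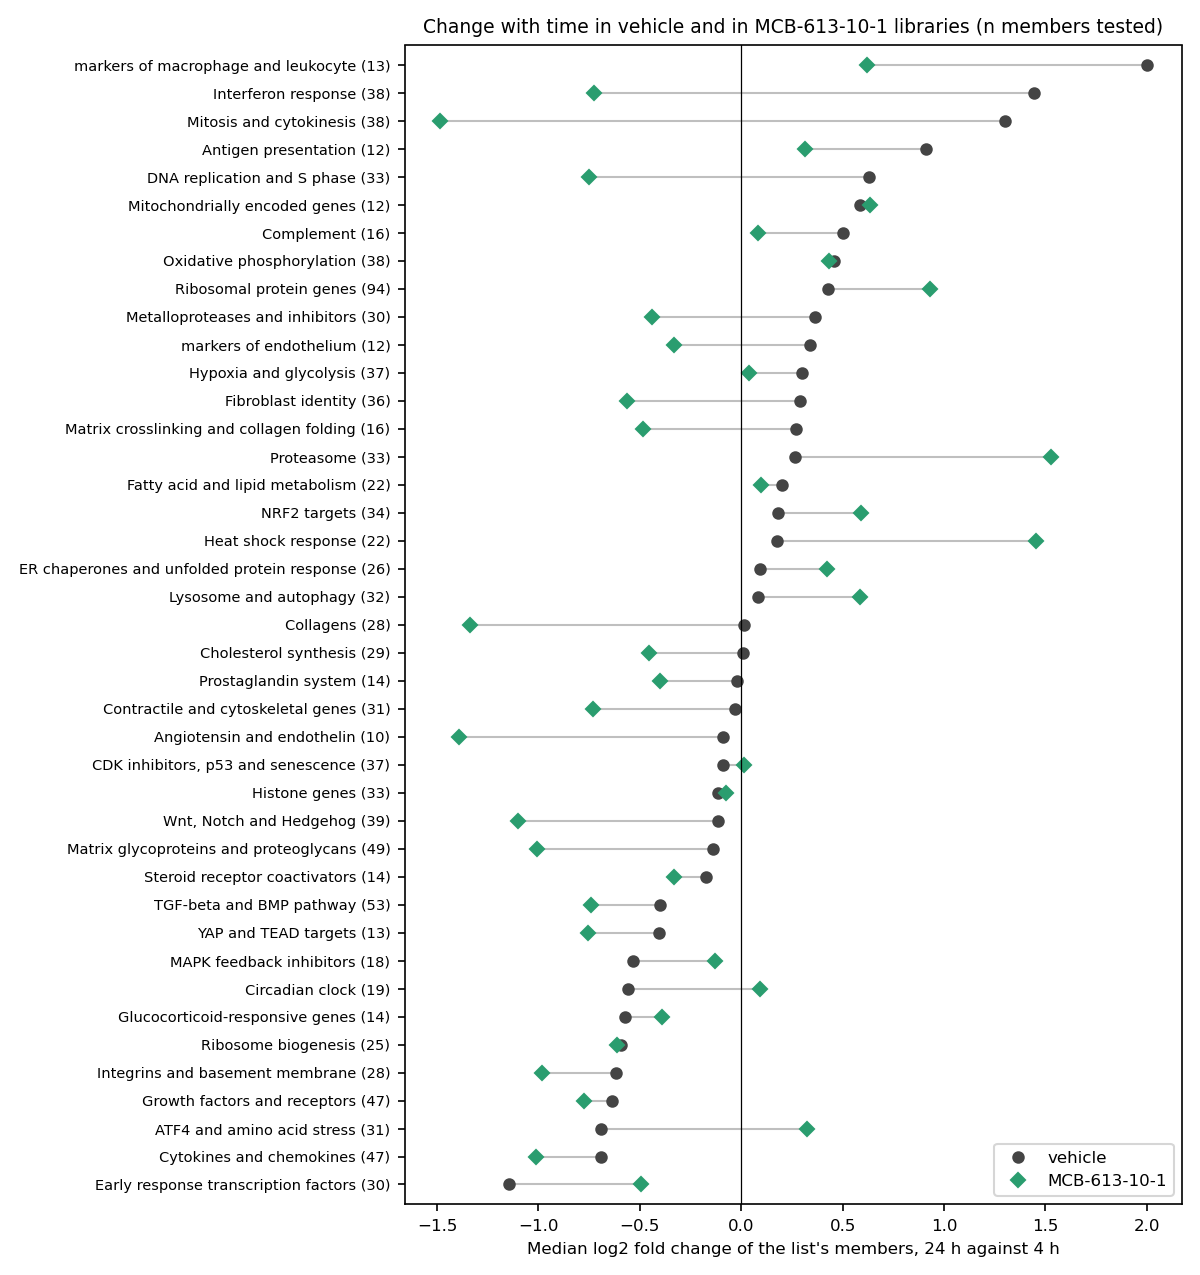
Median log2 fold change at 24 h against 4 h of each gene list with 10 or more tested members, in vehicle libraries and in MCB-613-10-1 libraries. Mitosis genes stand at 1.30 in vehicle and -1.48 in treated libraries in the fit of all 12, proteasome genes at 0.27 and 1.53, and oxidative phosphorylation genes at 0.46 and 0.43.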

How the data were processed

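RNA sequencing libraries of vehicle cells at 4 h and 24 h (3 each) were analysed, with 6 treated libraries for the last comparison. Per the submitters' processing notes, HISAT2 2.0.5, featureCounts 1.5.0-p3, DESeq2 and the GRCm39 build were used. The authors deposited raw counts per gene (26240 genes at 4 h, 27020 at 24 h). The deposited tables also hold normalised counts (signal), FPKM, log2 fold changes and p-values of the authors' treated against vehicle comparison, normalised separately per time, and none of these was used for a result. Counts were joined by gene identifier (29030 genes, 24230 in both tables), and a gene missing from a table was entered as 0.

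Genes were filtered with filterByExpr, scaled by TMM and tested with edgeR 4.0.16 (R 4.3.3) by its quasi-likelihood test, two-sided, with Benjamini-Hochberg adjustment over all genes and a threshold of 0.05. The time by treatment interaction was fitted on all 12 libraries. The code was tested on simulated data. FPKM was recomputed from the counts, the TMM scale and the deposited gene lengths. Alternatives used library totals, DESeq2 1.42.0, limma 3.58.1 voom, no filter, genes in both tables, a replicate block, all 12 libraries and leaving out each library. Named genes are, first, the 12 largest protein-coding rises and falls with non-overlapping groups and a mean of at least 1 FPKM in the higher group. Also named are up to 4 called members per list, 4 long noncoding RNAs each way and the 10 highest protein-coding genes. The rest are the 3 largest called differences each way among genes called in vehicle, and a set of genes listed by name. Items withheld for evaluation are not reported here. Other named genes are said to be picked after their values were seen. The members, the 48 lists and the tests were chosen with earlier results of these data known. Of 1281 listed symbols 1274 were in the files, 14 of them under another symbol. Intervals cover counting error only.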

Additional observations from a re-analysis of the deposited data

Results flagged for a closer look

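Only genes called in the vehicle comparison were considered here. Among them, 6 genes had the largest called differences of the change between MCB-613-10-1 and vehicle libraries, 3 in each direction. The test was edgeR's interaction test on 12 libraries. Values are the treated change minus the vehicle change on the log2 scale. The differences were 9.86 for Krtap4-16, 6.68 for Sprr2g and 6.23 for Nppb, the natriuretic peptide B gene. They were -7.87 for Gdf10, a BMP family ligand, -7.23 for Ms4a6c, a macrophage gene, and -6.89 for Rspo2, an activator of Wnt signalling. All 6 were low in the vehicle libraries, so these fitted sizes depend on the prior count: Krtap4-16 had 0 counts at 24 h, Sprr2g had 1, and Ms4a6c had 3 counts at 4 h. In 96 checks under other settings, which included leaving out each library in turn, the differences kept their direction and their call. The vehicle call by which Rspo2 was admitted was less stable. It was lost under several settings, among them edgeR's test in the fit of all 12 libraries (adjusted p = 0.0818).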

How the results depend on the processing

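The count of 8066 called genes was 8106 with library totals (4391 higher and 3715 lower, a higher share of 54.2% against 50.1%), 7965 with DESeq2, 8114 with limma voom, 8229 without a filter, 8065 with genes in both tables and 8881 with all 12 libraries in the fit. Leaving out 1 library gave 6477 to 8925, genes past 1 log2 unit 2173 to 2502, the higher share 48.8 to 49.8% and the called differences 8114 to 9120. Alternatives added after seeing the data gave 8025 calls without ribosomal RNA and mitochondrial genes and 7532 with protein-coding genes alone. Same-numbered libraries deviated together with r of 0.006, 0.093 and 0.101, and differently numbered ones with r from -0.114 to 0.025. With 3 libraries a group these values cannot decide whether equal numbers pair the samples. The labels do not say so, and the numbers were not taken to pair them. With the replicate block 7950 genes and 8787 differences were called. Among named genes, 3200 checks stayed on their side of the threshold, 38 lost a call and 3 gained one. Those lost included Rspo2, Ccl2, Col3a1, Col14a1, Tcf21, Ly6a, Olfr1033, Notch3, Myl9 and Tpm2. The medians of the cholesterol, prostaglandin, collagen, histone, contractile, CDK and p53, angiotensin and matrix glycoprotein lists changed sign under some setting. No call was reversed. Depth limits the genes with few counts, for which counting intervals or bounds are given.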
